A study of Mus musculus with 126 samples.

Results

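The genes described here build, fold, check and export proteins in the endoplasmic reticulum (ER), together with the sensors and transcription factors of the ER stress response. They were taken by name: 45 listed genes, all found among the 24883 genes of each of 7 expression tables. The members comprised 11 chaperones and 6 enzymes of oxidative folding (17 folding genes together), 7 genes of ER-associated degradation, 7 genes of stress signalling and 14 genes of translocation, signal peptide cleavage and N-glycosylation. Of these, 43 reached a mean of 1 FPKM in at least 1 condition and were tested, beside 11377 genes in all. FPKM is the number of fragments scaled by transcript length and by the mapped fragments of the library. Derl3, a degradation gene, and Trib3, a target of stress signalling, did not reach that level and are given by value.

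RNA of the mouse colon was measured every 4 h, at zeitgeber times (ZT, hours after lights on) 0, 4, 8, 12, 16 and 20, with 3 libraries at each time, 18 in each condition and 126 in all. The 3 genotype groups were wild type, Bmal1 knock out and MR knock out mice, where MR is the mineralocorticoid receptor, all with free access to normal chow. The design text describes the Bmal1 deletion as specific to the gut and gives 8 to 12 weeks as the age of the knock outs, without the driver of the deletion or an age of the wild type. The 4 feeding groups were male C57BL/6 mice of 8 weeks under 12 h light and 12 h dark, which carried no allele in the labels and were fed a low salt or a high salt diet either by day or by night. No source used here gives the exact hours of feeding. Times after the meal are therefore counted from the start of the fed phase, ZT0 for day fed and ZT12 for night fed mice. The comparisons ask how expression of these genes in the colon relates to the clock, the mealtime, the salt content of the diet and the mineralocorticoid receptor.

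The ER takes in newly made secreted and membrane proteins through the Sec61 channel, removes their signal peptides, adds sugars and folds them with chaperones and disulfide isomerases, while misfolded chains are sent back to the cytosol and degraded. When unfolded chains accumulate, the sensors IRE1 (encoded by Ern1, and in gut epithelium also by Ern2), ATF6 and PERK activate the unfolded protein response. IRE1 splices Xbp1 mRNA, PERK signalling raises translation of Atf4, and ATF4 induces Ddit3 (CHOP) and Trib3, whereas ATF6 and XBP1 induce chaperone and degradation genes through short promoter elements. The colon secretes mucins and antibodies in bulk, and goblet cells and plasma cells are its main secretory cells.

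Promoter windows of 5 members are printed here because they hold ER stress elements and these genes return in the comparisons. The windows were taken from RefSeq (build GRCm38.p6), 250 bases before to 50 bases after the annotated start, and 36 of the 45 members were matched. Printed are the 250 bases before the start, 5′ to 3′ on the strand of the gene, and capitals mark the fixed bases of the ER stress response element (ERSE, the half-sites CCAAT and CCACG with 9 bases between them) or of ERSE-II (the half-sites ATTGG and CCACG with 1 base between them), on either strand.
Hspa5 (chr2:34771840-34772089, plus strand): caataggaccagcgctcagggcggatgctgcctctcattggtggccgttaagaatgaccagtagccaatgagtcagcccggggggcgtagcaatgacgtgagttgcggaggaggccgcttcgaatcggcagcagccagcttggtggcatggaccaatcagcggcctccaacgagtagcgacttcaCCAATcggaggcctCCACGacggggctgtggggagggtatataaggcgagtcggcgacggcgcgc
Hsp90b1 (chr10:86705445-86705694, minus strand): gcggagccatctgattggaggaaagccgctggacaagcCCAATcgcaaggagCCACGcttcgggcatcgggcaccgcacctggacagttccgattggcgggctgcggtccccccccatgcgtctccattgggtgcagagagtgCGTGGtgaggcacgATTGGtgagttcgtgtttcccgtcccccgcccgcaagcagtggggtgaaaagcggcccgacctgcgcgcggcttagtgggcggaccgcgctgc
Creld2 (chr15:88819396-88819645, plus strand): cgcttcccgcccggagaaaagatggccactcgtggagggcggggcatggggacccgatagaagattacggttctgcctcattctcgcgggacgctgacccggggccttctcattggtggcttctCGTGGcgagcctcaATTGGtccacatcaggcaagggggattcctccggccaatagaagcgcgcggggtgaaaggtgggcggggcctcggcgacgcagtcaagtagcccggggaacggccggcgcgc
Dnajc3 (chr14:118937682-118937931, plus strand): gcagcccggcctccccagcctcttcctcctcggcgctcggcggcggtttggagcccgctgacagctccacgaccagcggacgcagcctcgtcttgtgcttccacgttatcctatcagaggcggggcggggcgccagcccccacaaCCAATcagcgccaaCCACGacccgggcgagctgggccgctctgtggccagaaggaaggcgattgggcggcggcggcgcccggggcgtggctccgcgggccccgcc
Herpud1 (chr8:94386179-94386428, plus strand): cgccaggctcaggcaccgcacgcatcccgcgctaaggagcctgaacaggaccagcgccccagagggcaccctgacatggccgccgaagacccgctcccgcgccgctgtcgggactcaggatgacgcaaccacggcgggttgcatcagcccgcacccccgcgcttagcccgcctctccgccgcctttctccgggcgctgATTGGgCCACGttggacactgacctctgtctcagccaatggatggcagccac

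Hspa5, the ER Hsp70 known as BiP, had 1 ERSE whose first base lay 65 bases before the start. Hsp90b1, the ER Hsp90 known as GRP94, had 2, one on each strand, while Creld2 and Dnajc3 had 1 each and Herpud1 had an ERSE-II 52 bases before its start. An ERSE was found in 10 of the 36 matched members (27.8%), namely Calr, Canx, Creld2, Derl3, Dnajc3, Ero1lb, Hsp90b1, Hspa5, Pdia6 and Syvn1, against 39 of all 32851 windows of that length (0.119%). By role these were 6 of 9 chaperones, 2 of 6 oxidative folding genes, 2 of 6 degradation genes, 0 of 5 stress signal genes and 0 of 10 translocation genes. ERSE-II was found in Dnajb11 and Herpud1 (5.56% of members against 0.0365% of windows). The UPRE letters TGACGTGG were found in 0 members (0.676% of windows), the amino acid response element TGATGCAA in Herpud1 alone (2.78% against 0.895%) and the E-box CACGTG in 5 members (13.9% against 7.15%), Calr, Derl3, Dnajb9, Sec62 and Ssr1. Both strands were searched and no 2 motifs overlapped in a member. A member counted as matched when any window under its symbol held the motif. These are matches of letters in a window, and binding was not measured.

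The targeted genes were examined first. Arntl, which encodes BMAL1, had 9.32 ± 6.28 FPKM in wild type (SD, n = 18, range 2.25 to 19.1) and 4.41 ± 0.988 in Bmal1 knock out (range 2.88 to 6.26). The ranges overlapped because wild type Arntl fell to 2.62 FPKM at ZT12, and FPKM over the whole gene does not show which part was deleted. At ZT4 the knock out libraries had 6.26, 5.91 and 5.46 FPKM of Arntl against 13.1, 14.9 and 13.3 in wild type. Nr1d1, a direct BMAL1 target, stayed at or under 2.08 FPKM in all 18 knock out libraries against a wild type mean of 20.8 ± 18.7 (SD, n = 18). Nr3c2, which encodes MR, had 15.1 ± 4.91 FPKM in wild type and 3.05 ± 0.989 in MR knock out (SD, n = 18 each), with no overlap between the libraries. The Bmal1 knock out had 6.36 ± 3.43. Summed FPKM ran from 158029 to 660895 per library and read depth is unknown. Each library was divided by a scale factor, and 14 libraries had a factor under 0.6: 9 of Bmal1 knock out (1 at ZT0, 3 at ZT12, 3 at ZT16, 2 at ZT20) and 5 of high salt night fed (3 at ZT8, 2 at ZT12). The 24 h rhythms and levels of the members in those 2 conditions are therefore given with and without these libraries. Their times of highest mean, 12 h components and genes outside the member list are given only with them. Whether the 7 tables were normalized together is unknown, so levels compared between conditions cross tables. Nothing says that replicates were separate mice, and p-values then measure the spread between these libraries only. Among secretory cells, the summed goblet cell markers (7 of 7 present) had a median of 6750 FPKM in wild type, and of 18700 and 14400 in the Bmal1 and MR knock outs. Their medians were 6890 and 8780 in low salt night and day fed and 7770 and 5900 in high salt night and day fed mice. Plasma cell markers (6 of 8 present) summed to medians of 47 to 68.8 FPKM. Of these, Tnfrsf17 and Pou2af1 were under 0.1 on average in every condition, and Mzb1 was so in wild type and both knock outs. Of the pancreatic acinar markers 10 of 11 were under 0.1. Colonocyte markers summed to medians of 5140 to 9400 FPKM, enteroendocrine markers to 105 to 183, and macrophage, smooth muscle and fibroblast markers to at most 4.23. In bulk tissue fewer cells of a type and less RNA per cell cannot be told apart.

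In wild type colon the most abundant members were Calr, the chaperone calreticulin, at 298 ± 73.5 FPKM, P4hb, a disulfide isomerase, at 210 ± 19.3, Sec61b, a subunit of the channel, at 186 ± 27.9, and Hspa5 at 174 ± 63.7 (SD, n = 18 each). The gaps among P4hb, Sec61b and Hspa5 were smaller than the SD of Hspa5. Members of stress signalling were spread widely: Atf4 had 98.9 ± 13.2 FPKM, Xbp1 64.2 ± 10.2, Ddit3 19.7 ± 5.99, Ern2 19.7 ± 6.06, Atf6 5.19 ± 0.955 and Ern1 4.2 ± 1.57 (SD, n = 18 each). At the low end were Ero1lb, an oxidase that recharges disulfide isomerases, at 1.55 ± 0.386, Derl3 at 0.176 ± 0.141 and Trib3 at 0.0943 ± 0.0518. Over the other conditions, mean Derl3 ran from 0.217 to 0.491 FPKM and mean Trib3 from 0.0613 to 0.631, the last due to 1 MR knock out library at 7.69 FPKM (ZT12, replicate 2). In the other 6 conditions Sec61b was above P4hb, and in Bmal1 knock out Sec61b (261 FPKM) was also above Calr (249). Hspa5 averaged between 133 ± 34.6 FPKM in Bmal1 knock out and 180 ± 106 in high salt day fed (SD, n = 18).

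In wild type colon 13 of 17 folding genes passed the test of a 24 h rhythm, all with peaks in the dark phase, and 1 of 6 stress signal genes did. The difference between these groups was not tested. Hspa5 had 155, 180 and 152 FPKM at ZT0, 91.6, 131 and 128 at ZT4, 96.9, 92.3 and 101 at ZT8, 173, 147 and 204 at ZT12, 296, 245 and 264 at ZT16, and 255, 228 and 190 at ZT20. The ZT16 libraries did not overlap those of ZT0 to ZT12, and the ZT4 and ZT8 libraries lay below those of ZT12. Its 24 h amplitude, the fitted peak minus the mean, was 0.70 ± 0.10 (log2, SE) with a peak at ZT17.8 and an adjusted p of 1.08e-05 (limma, Benjamini-Hochberg over all genes). Hyou1, a large ER Hsp70 that exchanges nucleotide on BiP, had the largest amplitude: it went from 12.9, 11 and 5.61 FPKM at ZT8 to 32.3, 30.6 and 34.1 at ZT16 (amplitude 0.82 ± 0.16, adjusted p = 0.00121). Creld2, an ER protein with disulfide isomerase activity, rose from 12.9, 16.6 and 13.1 FPKM at ZT4 to 50, 32.9 and 34.8 at ZT16 (0.70 ± 0.12, adjusted p = 0.000171). In both genes the high and the low libraries were fully apart.

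Of the 43 members 18 were rhythmic in wild type, against 17.7% of all genes tested. They included 9 of 11 chaperones, 4 of 6 oxidative folding genes, 2 of 6 degradation genes and 2 of 14 translocation genes. The 1 of 6 stress signal genes lay near the share of all genes. The other members of largest amplitude were Sdf2l1, a cofactor of ER Hsp40s (0.61 ± 0.10, peak ZT19.2), Manf, a secreted ER stress factor (0.49 ± 0.11, ZT17.6), and Pdia4, a disulfide isomerase (0.48 ± 0.10, ZT18). Hsp90b1 had 0.42 ± 0.08 (ZT19.1, adjusted p = 0.000607). The called folding genes had a mean peak at ZT18.8, and 15 of the 17 folding genes had their highest time mean at ZT16 or ZT20 (8 and 7), where 12.4% and 21% of all genes had theirs. The median amplitude of the folding genes was 0.42, that of the stress signal genes 0.17 and that of all genes 0.14. Xbp1 was the 1 rhythmic stress gene, with 54.1, 47 and 42.2 FPKM at ZT8 and 76.5, 72.5 and 71 at ZT20 (0.27 ± 0.07, ZT18.1, adjusted p = 0.018). The other stress genes did not pass: Atf4 0.12 ± 0.08 (adjusted p = 0.551), Atf6 0.06 ± 0.10 (0.932), Ddit3 0.14 ± 0.16 (0.814), Ern1 0.22 ± 0.22 (0.787) and Ern2 0.20 ± 0.15 (0.65). Herpud1, which recruits the degradation machinery, stood earlier than the folding genes: it had 78.1, 71.7 and 78.7 FPKM at ZT12 and at most 56.8 in every other wild type library (amplitude 0.43 ± 0.08, peak ZT13.4, adjusted p = 0.000411). Ppib (0.10 ± 0.08, adjusted p = 0.692) and Derl1 (0.04 ± 0.04, 0.753) did not pass, and their libraries ran from 113 to 242 FPKM and from 20.4 to 23.9 FPKM.

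**Figure D1:**
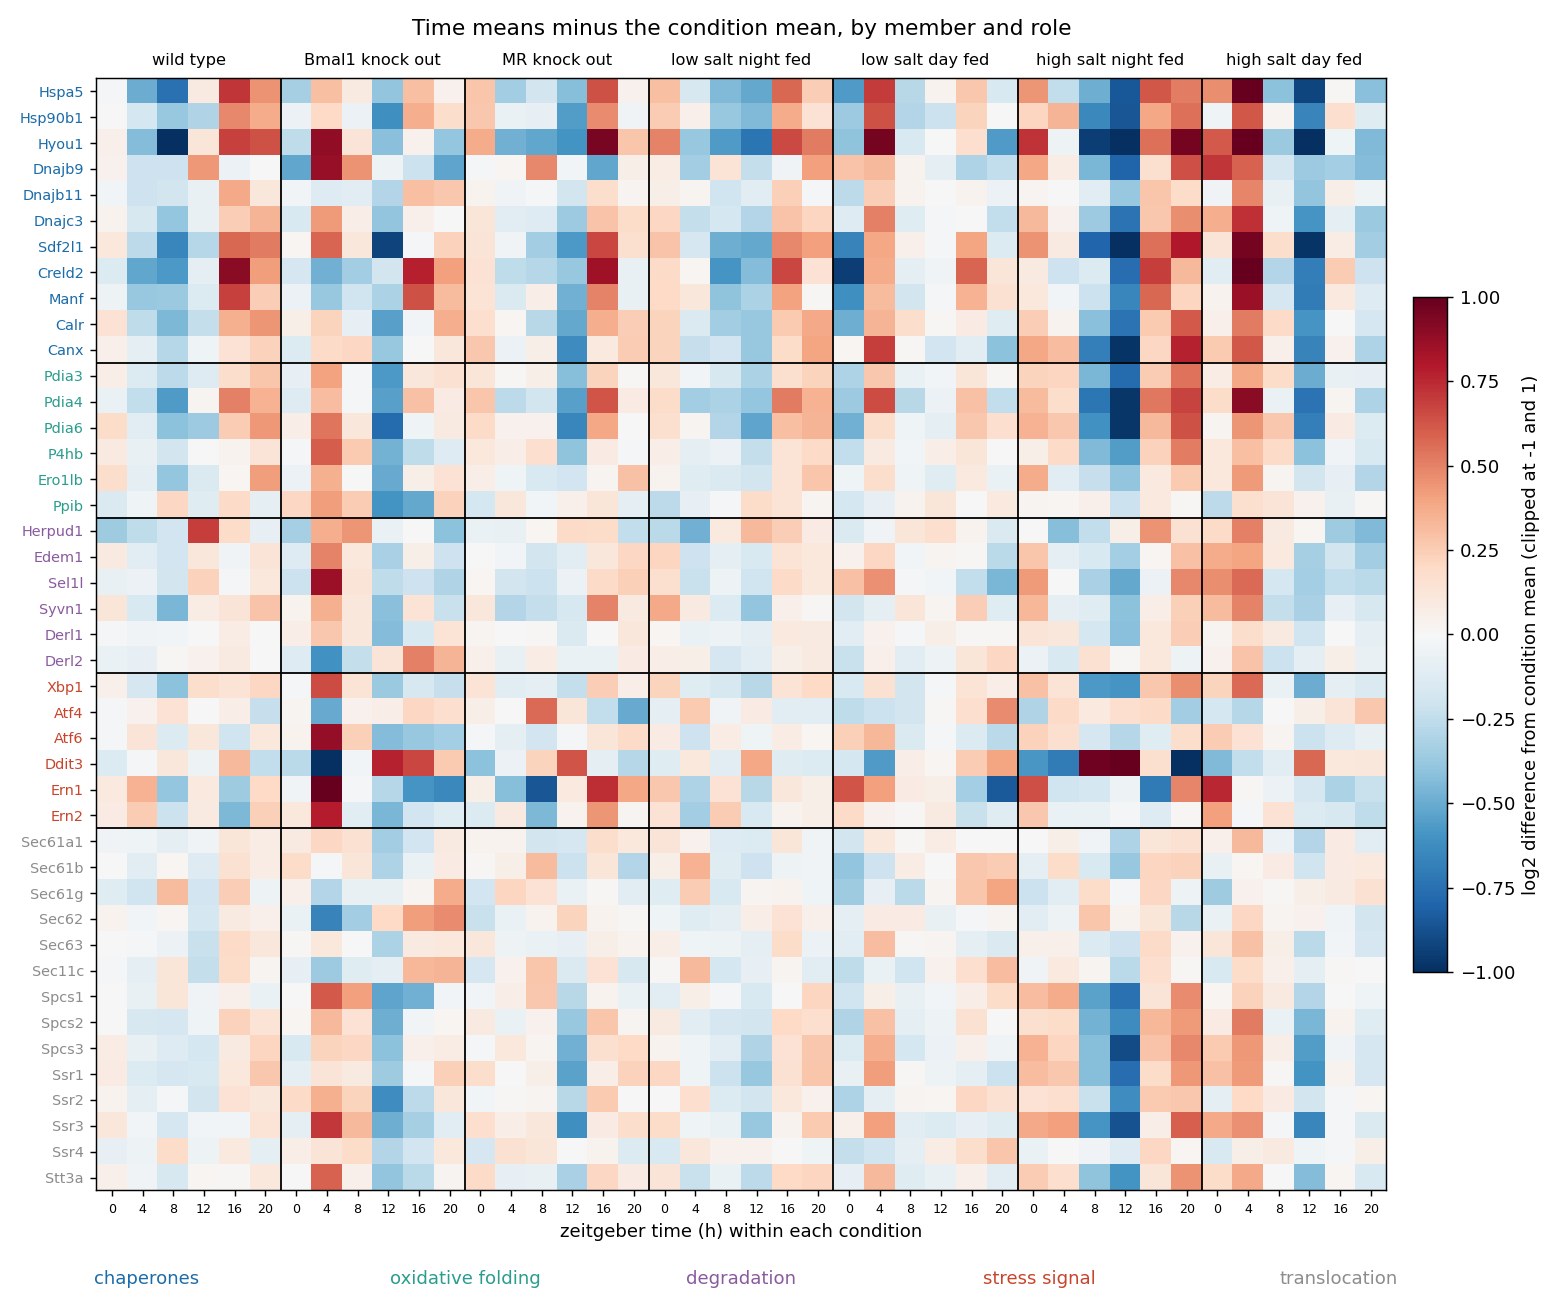
Time course of the 43 tested members (vertical axis, grouped by role) at 6 zeitgeber times in each of the 7 conditions (horizontal axis); colour is the mean of 3 libraries minus the mean of the condition, in log2, limited to 1 in either direction. The highest mean of the 17 folding genes lay at ZT16 or ZT20 for 15 in wild type and 16 in each night fed group, and at ZT4 for 16 in high salt day fed colon. Of all genes, 12.4% and 21% had theirs at ZT16 and ZT20 in wild type. These shares were 9.97% and 18.7% in low salt and 10.5% and 21.6% in high salt night fed mice. At ZT4 the share was 13.4% in high salt day fed mice, whose time labels are taken as given.

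On the low salt diet, 16 of 17 folding genes of night fed mice had their highest mean at ZT16 or ZT20. In day fed mice 11 had it at ZT4, 5 at ZT16 and 1, Ppib, at ZT12. Of all genes in night fed mice, 9.97% had theirs at ZT16 and 18.7% at ZT20. In day fed mice 28.3% of all genes had it at ZT4, 10.4% at ZT16 and 6.34% at ZT12. In night fed mice Hspa5 had 80.2, 104 and 137 FPKM at ZT12 and 220, 267 and 187 at ZT16. In day fed mice it had 94.5, 99.1 and 77.8 at ZT0, 202, 191 and 267 at ZT4, 111, 78.1 and 154 at ZT8, and 160, 142 and 185 at ZT16. The ZT4 libraries of the day fed mice lay above all their other libraries. The 24 h amplitude of Hspa5 was 0.49 ± 0.10 under night feeding (peak ZT20.2, 8.18 h after the start of the fed phase, adjusted p = 0.00115). Under day feeding it was 0.14 ± 0.10 (adjusted p = 0.448), where a single 24 h curve describes a profile with 2 highs poorly. Creld2 of day fed mice had 12.9, 12.5 and 13 FPKM at ZT0, 28.2, 29.4 and 41.3 at ZT4 and 32.7, 42.3 and 38.9 at ZT16. All libraries of ZT4 and ZT16 lay above those of ZT0.

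Under low salt night feeding 19 members were rhythmic (22.6% of all genes), of which 13 were folding genes with a mean peak at ZT20.1. Under low salt day feeding 14 were (42.2% of all genes), of which 3 were folding genes. Members of largest amplitude in night fed mice, beside Hspa5, were Hyou1 (0.74 ± 0.15), Sdf2l1 (0.54 ± 0.09), Pdia4 (0.47 ± 0.09), Creld2 (0.46 ± 0.08) and Calr (0.42 ± 0.06), all with peaks between ZT19.3 and ZT20.5. Hsp90b1 had 0.36 ± 0.09 (adjusted p = 0.00652) and Xbp1 0.25 ± 0.07 (0.019). The remaining stress genes of night fed mice did not pass: Atf4 0.13 (adjusted p = 0.514), Atf6 0.07 (0.775), Ddit3 0.16 (0.723), Ern1 0.14 (0.794) and Ern2 0.06 (0.867). Day fed mice had the largest amplitudes in Ern1 (0.51 ± 0.17, peak ZT4.75, adjusted p = 0.0436), Canx, the membrane-bound homologue of calreticulin (0.38 ± 0.12, ZT4.62), Sel1l, a scaffold of degradation (0.36 ± 0.10, ZT4.38), Creld2 (0.33 ± 0.08, ZT13.5), Atf4 (0.30 ± 0.09, ZT17.5, adjusted p = 0.0252) and Sec61g (0.30 ± 0.07, ZT17). Hsp90b1 (0.08, adjusted p = 0.736), Xbp1 (0.07, 0.676), Atf6 (0.22, 0.0603), Ddit3 (0.36, 0.141) and Ern2 (0.13, 0.464) did not pass in day fed mice. The day fed count was 9 without the day fed library of ZT4, replicate 2. Goblet markers of day fed mice summed to 15300 FPKM on average at ZT20 against a median of 8780, and their part in these rhythms was not tested.

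The rhythm of 26 members differed between day and night feeding on low salt (38.6% of all genes): 13 of 17 folding, 4 of 6 degradation, 8 of 14 translocation and 1 of 6 stress signal genes. The smallest adjusted p-values belonged to Calr (difference vector of length 0.65 ± 0.09 log2, adjusted p = 9.66e-07), Sdf2l1 (0.75 ± 0.13, 0.000104), Syvn1, a ubiquitin ligase of degradation (0.45 ± 0.08, 0.000122), Creld2 (0.59 ± 0.11, 0.000321) and Sec61b (0.45 ± 0.09, 4e-04). Hspa5 differed (0.62 ± 0.14, adjusted p = 0.00269) and so did Atf4 (0.43 ± 0.13, 0.0253). Hsp90b1 (0.34, 0.0667), Xbp1 (0.21, 0.17), Atf6 (0.28, 0.0965), Ddit3 (0.40, 0.285), Ern1 (0.58, 0.116) and Ern2 (0.18, 0.466) did not pass. When the night fed rhythm was moved by 12 h before the comparison, 7 members still differed (23.2% of all genes): Herpud1 (0.51 ± 0.08, adjusted p = 0.000115), Creld2 (0.53 ± 0.11, 0.00271), Ppib (0.30, 0.0207), Pdia6 (0.39, 0.0271), Ssr4 (0.23, 0.0363), Derl2 (0.20, 0.0389) and Hsp90b1 (0.40 ± 0.12, 0.0442). After that move Hspa5 (0.35, adjusted p = 0.125), Xbp1 (0.30, 0.0535), Atf4 (0.17, 0.528), Atf6 (0.16, 0.471), Ddit3 (0.38, 0.358), Ern1 (0.46, 0.279) and Ern2 (0.08, 0.858) did not pass, which does not show that their rhythm moved with the meal. The count of 7 was 14 without low salt night fed ZT0 replicate 2, 11 without low salt night fed ZT12 replicate 3, and 4 without low salt night fed ZT4 replicate 1, low salt day fed ZT4 replicate 2 or low salt day fed ZT16 replicate 2.

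Levels averaged over the day differed by mealtime on low salt in 2 members (3.33% of all genes): Ppib, a prolyl isomerase, rose (185 against 159 FPKM, log2 difference 0.22 ± 0.06, adjusted p = 0.0213, 1.04% of all genes higher) and Sec62, a partner of the channel, fell (11.6 against 13.6 FPKM, -0.22 ± 0.05, adjusted p = 0.00568, 2.29% lower). Hspa5 (-0.16, adjusted p = 0.404), Hsp90b1 (-0.03, 0.906), Xbp1 (-0.15, 0.236), Atf4 (-0.05, 0.826), Atf6 (-0.06, 0.715), Ddit3 (0.12, 0.723), Ern1 (0.11, 0.757) and Ern2 (-0.0074, 0.976) did not pass.

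On the high salt diet 16 of 17 folding genes of day fed mice had their highest mean at ZT4, and 16 of 17 of night fed mice at ZT16 or ZT20. Of all genes, 13.4% had it at ZT4 in day fed mice, and 10.5% and 21.6% at ZT16 and ZT20 in night fed mice. Hspa5 of day fed mice had 249, 192 and 207 FPKM at ZT0, 414, 358 and 364 at ZT4, 96.5, 121 and 137 at ZT8, 89.6, 79.4 and 77.3 at ZT12, 94.2, 169 and 241 at ZT16, and 110, 99.7 and 144 at ZT20. Night fed mice had 102, 127 and 140 FPKM of Hspa5 at ZT4, 80.3, 78.8 and 81 at ZT12, 227, 160 and 305 at ZT16, and 224, 197 and 200 at ZT20. The 3 day fed libraries of ZT4 held the highest Hspa5 of all 126 libraries. Its amplitude was 0.77 ± 0.10 under day feeding (peak ZT1.92, adjusted p = 1.2e-06) and 0.70 ± 0.10 under night feeding (peak ZT20.7, 8.66 h after the start of the fed phase, adjusted p = 8.42e-07). Calr had 442, 443 and 449 FPKM at ZT4 in day fed mice against 251, 269 and 263 in night fed mice. Creld2 had 53, 63.8 and 58.5 against 19.9, 19.2 and 34.1, and Hyou1 60.1, 42.4 and 34.5 against 10.6, 12.8 and 14.7. The 2 groups did not overlap at ZT4 in any of these genes. In high salt day fed mice the clock genes Arntl and Nr1d1 rose and fell in turn from each time to the next. Nr1d1 had 1.06, 1.39 and 1.95 FPKM at ZT0, 11.9, 9.15 and 8.05 at ZT4, and 1.34, 1.65 and 1.9 at ZT8. It had 28.7, 31.9 and 31 at ZT12, 14.6, 11.9 and 8.31 at ZT16, and 32, 26.3 and 19.1 at ZT20. Whether the time labels of this group are in order was not tested, and every time, peak and rhythm given for it depends on them.

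**Figure D2:**
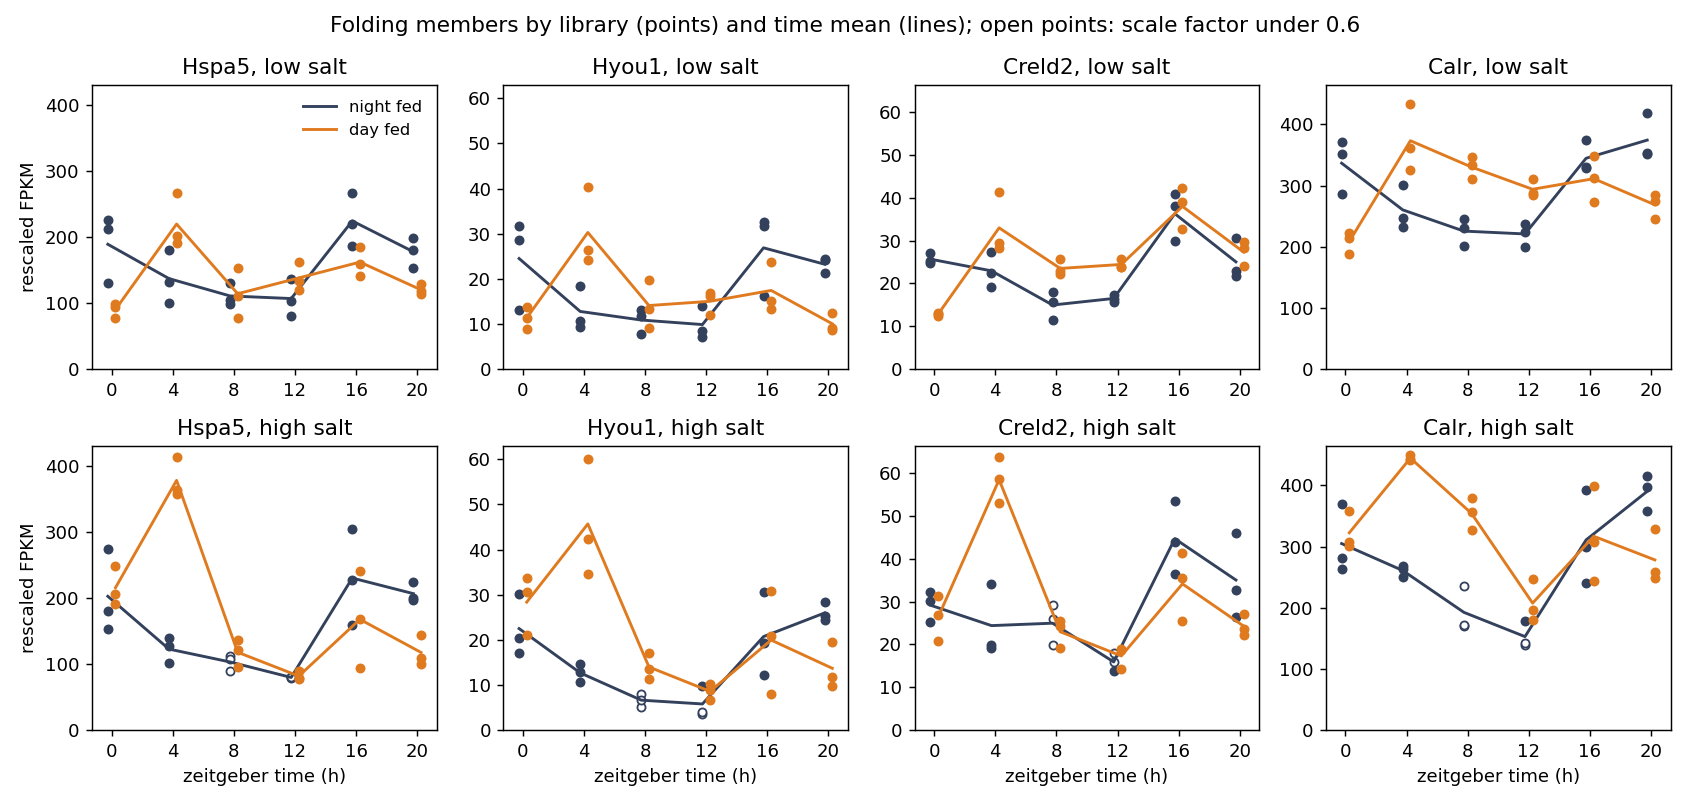
Rescaled FPKM (vertical axis, from 0) of Hspa5, Hyou1, Creld2 and Calr by zeitgeber time (h) in night and day fed mice, low salt above and high salt below; points are libraries, lines join the means of 3, and open points are libraries with a scale factor under 0.6. Hspa5 of high salt day fed mice averaged 379 FPKM at ZT4 against 123 in night fed mice, and on low salt day fed Hspa5 had highs at ZT4 and ZT16. The time labels of high salt day fed mice are taken as given.

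Under high salt day feeding 29 members were rhythmic (31.6% of all genes), including 16 of 17 folding genes with a mean peak at ZT2.58, 5 of 6 degradation genes, 7 of 14 translocation genes and Xbp1 as the 1 stress gene. Hyou1 (0.86 ± 0.15, ZT1.86), Hspa5, Sdf2l1 (0.59 ± 0.09, ZT2.89), Dnajb9, a BiP cochaperone (0.58 ± 0.14, ZT2.42), Dnajc3, a further cochaperone (0.52 ± 0.08, ZT2.63), and Pdia4 (0.52 ± 0.09, ZT2.53) had the largest amplitudes. Hsp90b1 had 0.31 ± 0.09 (adjusted p = 0.0203) and Xbp1 0.40 ± 0.07 (ZT2.13, 0.000207). Atf4 (0.22, adjusted p = 0.128), Atf6 (0.21, 0.0834), Ddit3 (0.39, 0.113), Ern1 (0.36, 0.193) and Ern2 (0.21, 0.141) did not pass. The highest mean of 6 of 6 degradation and 11 of 14 translocation genes was also at ZT4, against 13.4% of all genes. Goblet markers summed to 6270 FPKM on average at that time, within their range of 4230 to 8730 in this group.

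Under high salt night feeding 36 members were rhythmic (57% of all genes), of which 16 were folding genes (mean peak ZT21.4) and 4 were stress signal genes. Largest were Hyou1 (1.13 ± 0.15), Ddit3, the proapoptotic factor CHOP (1.10 ± 0.16, peak ZT10.9), Sdf2l1 (0.92 ± 0.09), Canx (0.81 ± 0.12), Pdia4 (0.79 ± 0.09) and Pdia6 (0.74 ± 0.08), and all but Ddit3 peaked between ZT21.3 and ZT22.1. Hsp90b1 had 0.66 ± 0.09 (adjusted p = 2.87e-07), Xbp1 0.56 ± 0.07 (6.51e-08), Atf6 0.28 ± 0.08 (0.0105) and Atf4 0.26 ± 0.09 (peak ZT10, 0.042), while Ern1 (0.43, 0.0832) and Ern2 (0.12, 0.487) did not pass. Ddit3 had 80.4, 78.7 and 68.4 FPKM at ZT8, 44.6, 118 and 121 at ZT12 and 20.4, 18.6 and 17.2 at ZT20. Its 5 highest values came from the 5 libraries of this group with a scale factor under 0.6. When these and the Bmal1 knock out libraries of that kind were left out, in a fit with cosine and sine terms, 4 members were called (7.61% of all genes). Hspa5 then had an amplitude of 0.70 ± 0.20 (adjusted p = 0.0968), Calr had 0.49 ± 0.11 (0.0255), Herpud1 0.39 ± 0.08 (0.00038), Xbp1 0.41 (0.0673) and Ddit3 0.61 ± 0.22 (0.126).

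Day and night feeding on high salt differed in the rhythm of 32 members (32.5% of all genes): 16 of 17 folding, 6 of 6 degradation, 8 of 14 translocation and 2 of 6 stress signal genes. The strongest were Herpud1 (0.80 ± 0.08, adjusted p = 6.33e-10), Sdf2l1 (1.04 ± 0.13, 1.46e-07), Calr (0.65 ± 0.09, 7.38e-07), Ero1lb (0.47 ± 0.07, 5.93e-06) and Hspa5 (0.93 ± 0.14, 6.93e-06). Hsp90b1 (0.61, 0.000722), Xbp1 (0.56 ± 0.10, 9.86e-05) and Ddit3 (0.86 ± 0.22, 0.0093) passed too. Atf4 (0.35, 0.0874), Atf6 (0.16, 0.503), Ern1 (0.21, 0.766) and Ern2 (0.17, 0.551) did not. Leaving out the low-scale libraries left 14 calls (13.6% of all genes), with Herpud1 at 0.81 (adjusted p = 2.01e-08), Hspa5 at 1.01 ± 0.25 (0.00511), Xbp1 at 0.47 (0.0181) and Ddit3 at 0.34 (0.748).

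Moving the night fed rhythm by 12 h did not bring it onto the day fed rhythm for most folding genes on high salt. This takes the time labels of the day fed group as given. With the night fed rhythm moved by 12 h, 36 members still differed (57.2% of all genes), among them 16 of 17 folding and 4 of 6 stress signal genes. The strongest were Sdf2l1 (1.15 ± 0.13, adjusted p = 1.28e-08), Calr (0.71 ± 0.09, 1.05e-07), Hspa5 (1.14 ± 0.14, 1.13e-07), Xbp1 (0.79 ± 0.10, 1.19e-07) and Spcs3, a signal peptidase subunit (0.87 ± 0.11, 1.44e-07). Hsp90b1 (0.83, 3.74e-06), Ddit3 (1.42 ± 0.22, 8.21e-06), Atf6 (0.47, 0.00204) and Ern1 (0.77, 0.0215) passed, and Atf4 (0.34, 0.0698) and Ern2 (0.30, 0.109) did not. For Herpud1 the 2 rhythms lay after the move 0.03 ± 0.08 apart (adjusted p = 0.931), with peaks 4.97 h and 4.95 h after the start of the fed phase under night and day feeding. Herpud1 of day fed mice had 67.7, 50 and 50.2 FPKM at ZT4 and 28.9, 31.7 and 30.5 at ZT16, and night fed mice had 26.6, 29.7 and 23.9 at ZT4 and 46.9, 42.6 and 60.1 at ZT16. Within each group the libraries of these 2 times did not overlap, and the time with more Herpud1 was opposite in the 2 groups. After the move, 21 members still differed when low-scale libraries were left out (24.7% of all genes), Hspa5 by 1.07 (adjusted p = 0.0113), Xbp1 by 0.66 (0.00203) and Herpud1 by 0.03 (0.977).

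Profiles with 2 highs, as in Hspa5 and Creld2, were described by adding a 12 h component, a measure chosen after the profiles had been seen. It passed in 6 members on low salt day feeding (0.571% of all genes), Creld2 (0.56 ± 0.08, adjusted p = 0.000213), Hspa5 (0.48 ± 0.10, 0.0196), Pdia4 (0.47, 0.0171), Hsp90b1 (0.44, 0.0167), Sdf2l1 (0.43, 0.0306) and Manf (0.37, 0.0141), all of them folding genes. On high salt day feeding 14 members passed (1.63% of all genes), 10 of them folding genes, among which Hspa5 had 0.65 ± 0.10 (adjusted p = 0.000197), Creld2 0.65 ± 0.08 (1.86e-06), Hyou1 0.63 (0.0378), Sdf2l1 0.55 (0.00076) and Manf 0.49 (0.000107). Under night feeding 17 passed on high salt (6.56% of all genes), and on low salt limma called 0 (0.141% of all genes), where 6 had an unadjusted p under 0.05, the smallest adjusted p was 0.082 (Creld2) and weighting libraries by their spread gave 18. Stress signal genes with a 12 h component numbered 0 of 6 in each of the 4 groups. The high salt night fed count includes the low-scale libraries, 3 of ZT8 and 2 of ZT12. It was not taken without all of them. In high salt day fed mice the clock genes Arntl and Nr1d1 also rose and fell in turn between times. A 12 h component in that group depends on the order of its time labels, which was not tested. Single libraries decided several of these counts. The low salt day fed count was 1 without ZT4 replicate 3 and 2 without ZT16 replicate 3 of that group, and the high salt day fed count was 8 without ZT16 replicate 2 and 6 without ZT16 replicate 3. The high salt night fed count was 8 without ZT0 replicate 1, 7 without ZT0 replicate 3, 7 without ZT4 replicate 3, 8 without ZT12 replicate 2, 5 without ZT16 replicate 1 and 3 without ZT16 replicate 3, and the low salt night fed count was 1 without its ZT8 replicate 3 or without high salt night fed ZT4 replicate 3.

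At ZT4, 4 h into the fed phase of day fed mice, 20 members differed between day and night feeding on high salt (20.7% of all genes), 19 higher (10.3%) and 1 lower (10.4%). The 19 comprised 10 of 17 folding genes, 5 of 6 degradation genes, 3 of 14 translocation genes and Xbp1. Hspa5 was higher by 1.63 ± 0.24 (379 against 123 FPKM, adjusted p = 2.62e-06). Hyou1 was higher by 1.78 ± 0.37 (45.7 against 12.7, 0.000351), Sdf2l1 by 1.37 ± 0.23 (54.7 against 20.8, 1.22e-05), Creld2 by 1.29 ± 0.19 (58.4 against 24.4, 2.62e-06) and Herpud1 by 1.04 ± 0.14 (56 against 26.7, 3.43e-07). Xbp1 rose by 0.49 ± 0.17 (81.5 against 58.4, adjusted p = 0.0361). The 1 lower member was Atf4, the factor of the integrated stress response, with 92.5, 126 and 99.3 FPKM in day fed and 188, 132 and 253 in night fed mice (-0.81 ± 0.23, adjusted p = 0.00797). Its groups did not overlap. Hsp90b1 (0.53, adjusted p = 0.0723), Ddit3 (-0.27, 0.65), Atf6 (0.26, 0.347), Ern1 (0.71, 0.22) and Ern2 (0.19, 0.558) did not pass. At this time no library of either group had a low scale factor. The day fed libraries labelled ZT4 had 2.73, 2.27 and 2.97 FPKM of Arntl. Night fed libraries had 8.64, 8.73 and 6.52 at ZT4 and 2.11, 1.91 and 2.73 at ZT16. Whether the day fed time label is right was not tested. The median difference was 0.76 in folding genes and 0.0089 in all genes.

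On low salt 7 members differed at ZT4 (7.7% of all genes), 6 higher (4.69%) and 1 lower (3.01%). Hyou1 was higher by 1.24 ± 0.37 (30.3 against 12.8 FPKM, adjusted p = 0.0296). Higher too were Pdia4 by 0.91 ± 0.23 (52.4 against 27.9, 0.0123), Sdf2l1 by 0.76 ± 0.23 (0.0298), Dnajc3 by 0.68 ± 0.2 (0.0267), Calr by 0.52 ± 0.15 (373 against 260, 0.0284) and Sec63, an Hsp40 of the channel, by 0.31 (0.0207). Sec61b was lower (188, 205 and 219 against 246, 261 and 378 FPKM, -0.51 ± 0.15, adjusted p = 0.0274). Hspa5 missed the threshold at 0.70 ± 0.24 (220 against 138 FPKM, adjusted p = 0.0619), as did Hsp90b1 (0.56, 0.0848), Xbp1 (0.12, 0.637), Atf4 (-0.52, 0.111), Atf6 (0.48, 0.0975), Ddit3 (-0.55, 0.306), Ern1 (0.83, 0.161) and Ern2 (0.38, 0.222). This count rested on few libraries: it was 16 without low salt night fed replicate 1 of ZT4, 2 without its replicate 2 and 0 without its replicate 3. It was 4, 1 and 0 without day fed replicates 1, 2 and 3. At ZT16, 4 h into the fed phase of night fed mice, 1 member differed on low salt (2.36% of all genes, 1.09% higher and 1.27% lower), Sec63 (-0.31, adjusted p = 0.0371), and 2 on high salt (7.91%, 5.17% higher and 2.74% lower), Herpud1 (30.3 against 49.9 FPKM, -0.69 ± 0.14, 0.00059) and Sec62 (-0.47 ± 0.12, 0.00533). The low salt count at ZT16 was 2 without replicate 1 of either group and 0 without replicate 2 or replicate 3 of either group.

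**Figure D3:**
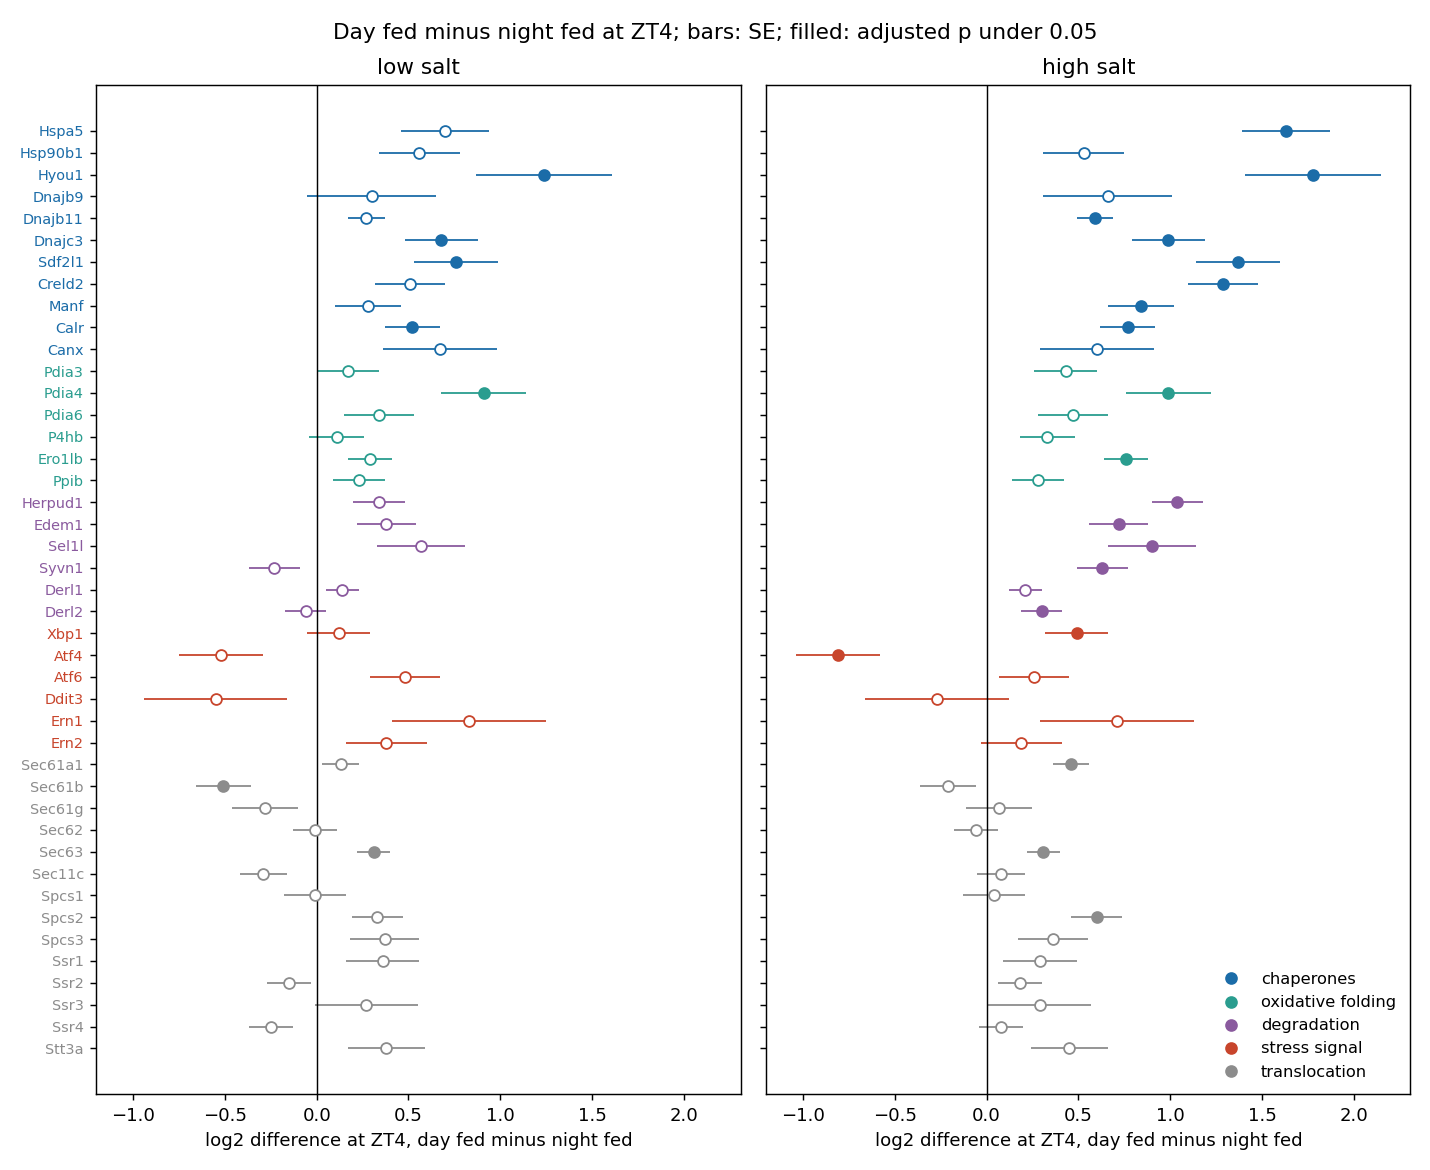
Day fed minus night fed log2 FPKM at ZT4 for the tested members (horizontal axis, log2 units; vertical axis, members by role), low salt and high salt; bars are standard errors over 3 libraries a group and filled points passed an adjusted p of 0.05. On high salt 19 members were higher (10.3% of all genes) and Atf4 was lower (10.4% of all genes), with the time labels of day fed mice taken as given.

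Averaged over the day, 23 members differed between day and night feeding on high salt (27.6% of all genes), 19 higher (14.7%) and 4 lower (12.9%). Higher were 10 folding genes and 0 were lower. Sdf2l1 rose by 0.51 ± 0.09 (adjusted p = 3.79e-05), Ern1 by 0.50 ± 0.17 (0.0258), Hyou1 by 0.45 ± 0.15 (0.0224), Sel1l by 0.33 ± 0.1 (0.0103), Pdia6 by 0.30 ± 0.08 (0.00356), Atf6 by 0.28 ± 0.08 (0.00748) and Hsp90b1 by 0.25 ± 0.09 (0.032). Lower were Ddit3 (25.1 against 47.6 FPKM, -0.72 ± 0.16, adjusted p = 0.000735), Atf4 (132 against 167, -0.33 ± 0.09, 0.00717), Sec62 (-0.32 ± 0.05, 1.05e-06) and Derl2 (-0.15 ± 0.04, 0.00997). With the deposited FPKM taken without rescaling, Atf4, Sec62 and Derl2 turned to 0.13, 0.12 and 0.28, and 40 members were higher and 1 lower. The median over all genes was then 0.41, and 0.02 after rescaling. Hspa5 (0.11, 0.44), Xbp1 (0.05, 0.582) and Ern2 (0.13, 0.274) did not pass. Once low-scale libraries were left out 2 members passed, 1 in each direction (7.08% of all genes), Sec62 among them (-0.28, 0.00132), while Ddit3 had -0.42 (0.168), Atf4 -0.31 (0.0793) and Sdf2l1 0.31 (0.226). Goblet markers averaged 14200 FPKM at ZT8 and 11400 at ZT12 in high salt night fed mice, the times of their low-scale libraries, against a median of 7770, and their part in these differences was not tested.

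**Figure D4:**
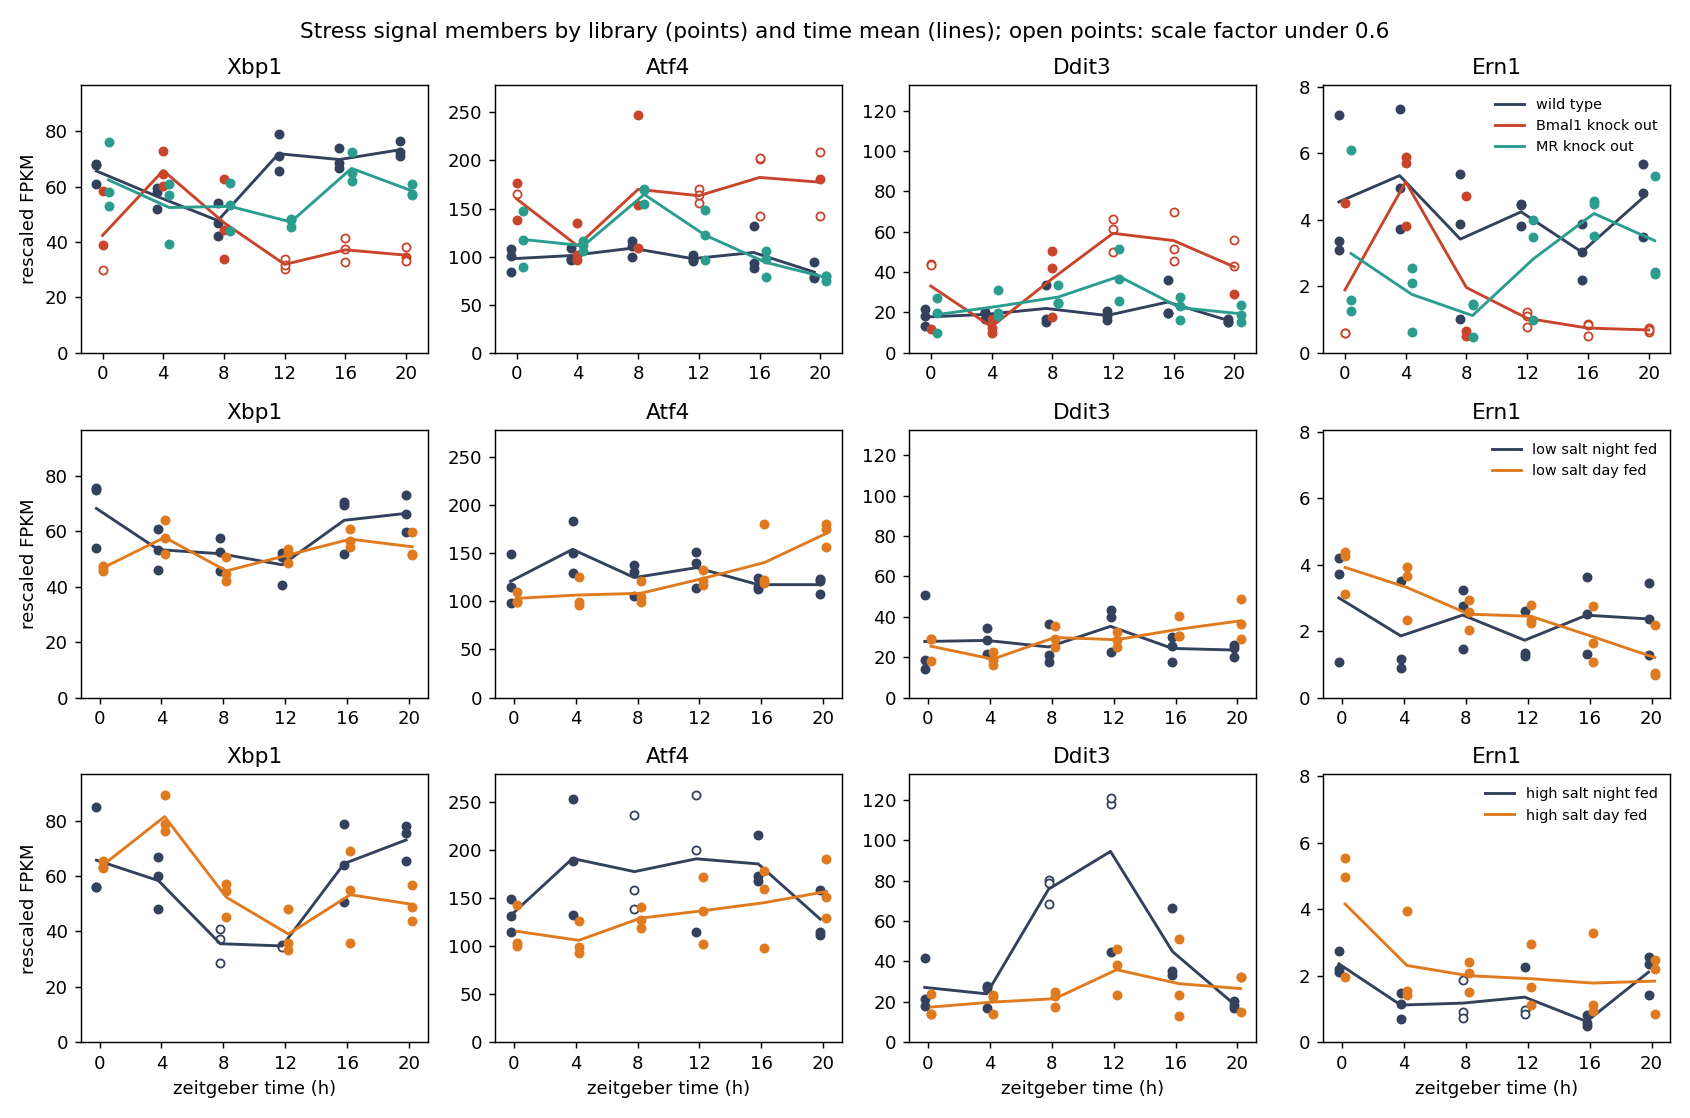
Rescaled FPKM (vertical axis) of Xbp1, Atf4, Ddit3 and Ern1 by zeitgeber time (h), with the genotype groups in the upper row, low salt in the middle and high salt in the lower row; points are libraries, lines join the means of 3 and open points have a scale factor under 0.6. Ddit3 reached 94.7 FPKM on average at ZT12 in high salt night fed mice and 59.2 in Bmal1 knock out, both from libraries with mostly open points.

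Between the diets, under day feeding, the rhythm of 12 of 17 folding genes and the daily mean of 3 passed the test. The rhythm comparison rests on the time labels of high salt day fed mice as given. High salt against low salt day feeding differed in the rhythm of 21 members (11.3% of all genes), 12 of 17 folding genes and 1 of 6 stress genes. Syvn1 (0.52 ± 0.08, adjusted p = 3.34e-05), Creld2 (0.72 ± 0.11, 4.24e-05), Manf (0.61 ± 0.10, 0.000168), Hspa5 (0.83 ± 0.14, 0.000189) and Sdf2l1 (0.77 ± 0.13, 0.000189) led, and Xbp1 passed (0.44, 0.00653). Hsp90b1 (0.23, 0.383), Atf4 (0.12, 0.782), Atf6 (0.07, 0.875), Ddit3 (0.27, 0.662), Ern1 (0.38, 0.502) and Ern2 (0.10, 0.843) did not. In daily mean 3 members differed (14.8% of all genes; 7.79% higher, 7.05% lower): Hsp90b1 (173 against 143 FPKM, 0.27 ± 0.09, adjusted p = 0.0323) and Pdia3 (0.22 ± 0.07, 0.0253) rose and Ppib fell (-0.25 ± 0.06, 0.00206). Hspa5 (0.22 ± 0.1, 0.138), Xbp1 (0.07, 0.524), Atf4 (0.07, 0.685), Atf6 (0.0015, 0.994), Ddit3 (-0.28, 0.244), Ern1 (-0.13, 0.649) and Ern2 (0.02, 0.884) did not pass. That count was 1 without high salt day fed ZT12 replicate 1, ZT16 replicate 3 or ZT20 replicate 3, and 7 without ZT16 replicate 1. None of the low-scale libraries belongs to these 2 groups. With them left out of the shared fit, which then had cosine and sine terms, the rhythm count was 7 (7.88% of all genes); with those terms and all libraries it was 6.

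Under night feeding, high salt against low salt differed in the daily mean of 19 members (35% of all genes), 6 higher (15.4%) and 13 lower (19.6%). Ddit3 (47.6 against 27.4 FPKM, 0.56 ± 0.16, adjusted p = 0.00551), Atf4 (167 against 128, 0.35 ± 0.09, 0.00321), Creld2 (0.27, 0.00607), Manf (0.21, 0.0222) and Sec62 (0.20, 0.0012) rose. Of these Atf4, Creld2, Manf and Sec62 turned to -0.15, -0.21, -0.28 and -0.28 without rescaling. Then 0 members were higher and 40 lower, and the median over all genes was -0.45, against -0.02 after rescaling. Lower were Ern1 (-0.52 ± 0.17, adjusted p = 0.0161), Sel1l (-0.38 ± 0.1, 0.00228), Herpud1 (-0.36 ± 0.06, 4.78e-06), Atf6 (-0.34 ± 0.08, 0.000939) and Edem1, a lectin of degradation (-0.26 ± 0.06, 0.00159). Hspa5 (-0.05, 0.727), Hsp90b1 (-0.0062, 0.962), Xbp1 (-0.13, 0.128) and Ern2 (-0.11, 0.325) did not pass. The 6 higher members had a median longest transcript of 2133 bases and the 13 lower ones of 3305. Without the low-scale libraries 4 members passed, 1 higher and 3 lower (13.6% of all genes), with Herpud1 at -0.35 (adjusted p = 0.000765), Atf4 at 0.33 (0.0404) and Ddit3 at 0.26 (0.362). In rhythm 11 members differed (12.3% of all genes), led by Spcs1 (0.53 ± 0.10, adjusted p = 0.00202), Derl1 (0.22 ± 0.05, 0.0112), Ddit3 (0.95 ± 0.22, 0.0112), Spcs3 (0.43, 0.0201) and Spcs2 (0.32, 0.0229). Hspa5 (0.23, 0.505), Hsp90b1 (0.30, 0.203), Xbp1 (0.31, 0.0742), Atf4 (0.22, 0.48), Atf6 (0.29, 0.16), Ern1 (0.33, 0.631) and Ern2 (0.12, 0.796) did not pass. For rhythm, limma called 0 when low-scale libraries were left out (0.0176% of all genes), and 0 had an unadjusted p under 0.05. Leaving out 1 library moved that count of 11 widely: to 1 without low salt night fed ZT0 replicate 2, to 6 without its ZT8 replicate 2, ZT12 replicate 3 or ZT20 replicate 3, and to 7 without its ZT12 replicate 2 or ZT20 replicate 2. It moved to 4 without high salt night fed ZT0 replicate 2 or ZT12 replicate 2, to 5 without its ZT12 replicate 3, to 6 without its ZT8 replicate 1 or ZT20 replicate 3, and to 22 without its ZT12 replicate 1. The salt comparisons share their groups with the mealtime comparisons.

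The tests of whether mealtime acted differently on the 2 diets passed in 15 of 43 members for the daily mean (19.7% of all genes) and in 9 for the rhythm (6.21% of all genes). The rhythm effect differed for Syvn1 (0.58, adjusted p = 0.00311), Creld2 (0.72, 0.00785), Herpud1 (0.51, 0.0103), Manf (0.64, 0.0115) and Hspa5 (0.72, 0.0492). Of the 15 members that passed for the daily mean Ddit3 was negative (-0.84, adjusted p = 0.00771), and the other 14, such as Pdia3 (0.39, 0.00478) and Canx (0.54, 0.0279), were positive. With low-scale libraries left out, limma called 0 members for the mean (6 at an unadjusted p under 0.05; 9 with those libraries kept in the same cosine and sine model). It called 1 for the rhythm, Syvn1 (0.57, adjusted p = 0.0474), and 2 with those libraries kept in the same cosine and sine model. Shares of all genes are not given for these cosine and sine fits. The rhythm tests rest on the time labels of high salt day fed mice as given.

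In Bmal1 knock out colon Hspa5 had its highest time mean at ZT16 and its lowest at ZT12. The levels of Ern1 and Ddit3 moved with a split of the libraries by scale factor. Hspa5 had 101, 89.8 and 116 FPKM at ZT0, 163, 166 and 146 at ZT4, 97, 193 and 136 at ZT8, 107, 78.5 and 110 at ZT12, 125, 183 and 175 at ZT16, and 155, 147 and 102 at ZT20. All libraries of ZT4 and ZT16 lay above those of ZT12, and those of ZT16 overlapped those of ZT4. The ZT8 libraries overlapped both and held the highest value, 193 FPKM, so separate highs at ZT4 and ZT16 are not shown. All libraries of ZT12 and ZT16 had a scale factor under 0.6. The 24 h amplitude of Hspa5 was 0.01 ± 0.10 (adjusted p = 0.993). Ern1 had 5.72, 5.9 and 3.8 FPKM at ZT4, 0.583, 0.59 and 4.51 at ZT0, 0.662, 4.71 and 0.518 at ZT8, and at most 1.23 in every library of ZT12, ZT16 and ZT20. The 5 libraries high in Ern1 were the 5 knock out libraries with scale factors between 1.23 and 1.48 (ZT0 replicate 3, all of ZT4, ZT8 replicate 2), and the other 13 had factors from 0.297 to 0.78. Ddit3 ran the other way: those 5 libraries had 9.69 to 17.8 FPKM and the other 13 had 29 to 69.8, with no overlap.

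Of the 43 members 34 were rhythmic in Bmal1 knock out (56.7% of all genes), 12 of 17 folding and 6 of 6 stress signal genes. The largest amplitudes were those of Ddit3 (0.94 ± 0.16, peak ZT15.1), Ern1 (0.88 ± 0.22, ZT4.48), Dnajb9 (0.61 ± 0.13, ZT6.86), Atf6 (0.60 ± 0.10, ZT4.2), Creld2 (0.59 ± 0.12, ZT17.5) and Sec62 (0.57 ± 0.06, ZT17.1). Xbp1 had 0.39 ± 0.07 (ZT4.05, adjusted p = 0.000115), Ern2 0.45 (0.0384), Atf4 0.26 (0.0194) and Hsp90b1 0.23 ± 0.08 (0.0438). The highest mean of 9 of the 17 folding genes fell at ZT4, where 46.5% of all genes had theirs. Rhythms differed from wild type in 28 members (31.2% of all genes), most clearly in Sec62 (0.54 ± 0.08, adjusted p = 3.15e-05), Xbp1 (0.64 ± 0.10, 0.000121), Spcs1 (0.53 ± 0.09, 0.000262), P4hb (0.51 ± 0.09, 0.00061) and Derl1 (0.30 ± 0.05, 0.000612). Hspa5 (0.71 ± 0.14, 0.00184), Atf6 (0.55, 0.0155) and Ddit3 (0.85 ± 0.22, 0.0129) passed, and Hsp90b1 (0.30, 0.0931), Atf4 (0.34, 0.0531), Ern1 (0.78, 0.116) and Ern2 (0.27, 0.558) did not. Without the low-scale libraries, which leaves none of ZT12 and ZT16, 3 members were rhythmic (6.63% of all genes) and 4 differed in rhythm (2.45% of all genes), with Sec62 at 0.69 (adjusted p = 0.00826), Xbp1 at 0.91 (0.0149), Hspa5 at 0.80 (0.0779) and Ddit3 at 1.12 (0.147). Sec62 had 10.8, 12.9 and 12.8 FPKM at ZT4 and 25.9, 26.5 and 29.7 at ZT20, against 11.4 to 16.7 in all wild type libraries. The knock out libraries had scale factors of 1.26, 1.39 and 1.39 at ZT4 and 0.547, 0.648 and 0.312 at ZT20. These 2 times therefore lie on opposite sides of the split by scale factor. The fit without low-scale libraries still held knock out libraries of both sides, with only replicate 2 at ZT20. Its rhythms are not free of the split.

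Levels differed between Bmal1 knock out and wild type in 40 members (80.3% of all genes), 12 higher (31.1%) and 28 lower (49.2%). Dnajb9 was lowest (6.46 against 16.5 FPKM, -1.40 ± 0.13, adjusted p = 5.19e-12), with 23.1, 19.4 and 23.4 FPKM in wild type and 5.39, 5.51 and 5.72 in the knock out at ZT12. Next came Ern1 (1.91 against 4.2 FPKM, -1.25 ± 0.22, 3.29e-06), Hyou1 (10.5 against 21.9, -1.04 ± 0.16, 5.03e-07), Herpud1 (25.3 against 48.5, -0.93 ± 0.08, 1.86e-12) and Sel1l (-0.92 ± 0.1, 7.7e-10). Higher were Sec11c, the catalytic signal peptidase subunit (205 against 105 FPKM, 0.94 ± 0.1, 7.57e-11), Ddit3 (40 against 19.7, 0.83 ± 0.16, 1.02e-05), Manf (0.79 ± 0.11, 3.01e-08), Sec61g (0.78 ± 0.11, 3.07e-08) and Atf4 (161 against 98.9, 0.67 ± 0.08, 2.88e-09). Hspa5 (-0.34 ± 0.1, 0.0027), Xbp1 (-0.60 ± 0.07, 1.38e-09), Atf6 (-0.85 ± 0.1, 3.8e-09) and Ern2 (-0.73 ± 0.15, 4.9e-05) were lower, and Hsp90b1 did not pass (-0.04, 0.61). Without rescaling the median over all genes was -0.89, against -0.13 with it. Ddit3, Manf, Sec61g and Atf4 then turned to -0.06, -0.10, -0.12 and -0.23, and 0 members were higher and 38 lower. The 28 lower members had longer transcripts (median 3320 bases) than the 12 higher ones (2133). With a score of transcript length per library as a covariate 15 members passed, 6 higher and 9 lower. Of all genes 34.2% passed, and 52% of those calls were higher. Ddit3, Ern1 and Ern2 then turned to -0.09, 0.32 and 0.30.

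At ZT4, the one time at which all 3 knock out libraries had scale factors like those of wild type, 1 of 43 members differed in level (6.35% of all genes; 2.75% higher, 3.6% lower), Ssr2, a subunit of the translocon-associated complex (104, 129 and 140 FPKM against 81.3, 85.6 and 77.9, 0.60 ± 0.16, adjusted p = 0.0164). This comparison was chosen after the split of the libraries had been seen. It rests on 3 libraries a group, with the spread taken from all 54 genotype libraries. Hspa5 (0.45 ± 0.25, adjusted p = 0.318), Xbp1 (0.22 ± 0.17, 0.526), Hyou1 (0.27 ± 0.4, 0.777) and Ddit3 (-0.57 ± 0.38, 0.433) had the opposite sign there. Dnajb9 had -0.33 ± 0.31 (0.62), Ern1 -0.02 ± 0.54 (0.992), Herpud1 -0.31 ± 0.20 (0.399), Atf6 -0.10 ± 0.25 (0.888), Atf4 0.13 ± 0.20 (0.797). Hsp90b1 had 0.33 ± 0.20 (0.364), Ern2 -0.20 ± 0.38 (0.837) and Sec11c 0.66 ± 0.23 (0.0818). Without the libraries of low scale factor at all times, 29 members differed in level, 12 higher and 17 lower (67.1% of all genes), with Dnajb9 at -1.51 (adjusted p = 2.61e-05), Hyou1 at -1.16 (0.00287), Sec11c at 1.10 (8.86e-06), Atf4 at 0.85 (4.13e-05) and Hspa5 at -0.28 (0.239). That fit had cosine and sine terms and no knock out library of ZT12 or ZT16. It kept knock out libraries from the lower side of the split, with factors of 0.621 to 0.78. These were ZT0 replicate 1, ZT8 replicates 1 and 3, and ZT20 replicate 2, the only knock out library left at ZT20. These levels are therefore not free of the split. Goblet markers averaged 13000 FPKM at ZT4 and 24700 at ZT16 in the knock out against medians of 18700 there and 6750 in wild type, and their part in these differences was not tested.

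**Figure D5:**
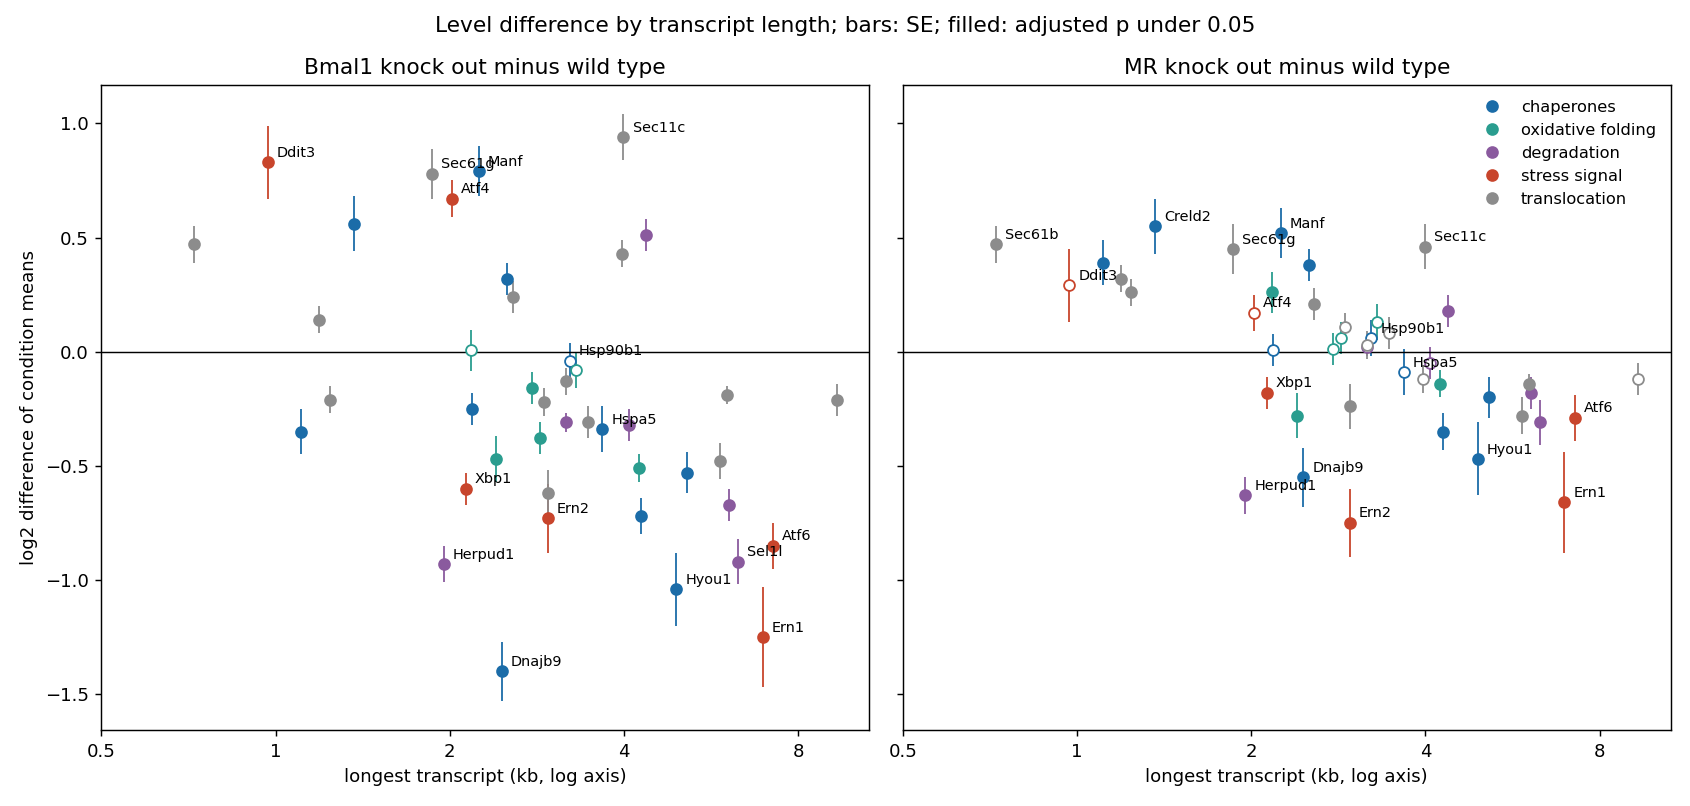
Level difference from wild type (vertical axis, log2) against the longest annotated transcript (horizontal axis, kb) for the tested members, in Bmal1 knock out and MR knock out. Members lower in a knock out tended to have longer transcripts, with medians of 3320 against 2133 bases in Bmal1 knock out and 4603 against 2018 in MR knock out.

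In MR knock out colon 8 of 17 folding genes were rhythmic, and no member passed the test of a rhythm changed from wild type. Hspa5 had 166, 89.4 and 100 FPKM at ZT12 and 292, 254 and 182 at ZT16, with no overlap between these times, and 13 of 17 folding genes had their highest mean at ZT16 (20.4% of all genes), while Dnajb9 and P4hb had it at ZT8. In all, 11 members were rhythmic (21.7% of all genes), and the 8 folding genes among them had a mean peak at ZT20.5. Hyou1 (0.68 ± 0.16, ZT19.3), Atf4 (0.41 ± 0.08, ZT7.48), Sdf2l1 (0.40 ± 0.10, ZT20), Pdia4 (0.37 ± 0.10, ZT19.8), Hspa5 (0.36 ± 0.10, ZT19.1, adjusted p = 0.0268) and Calr (0.36 ± 0.07, ZT21.1) had the largest amplitudes. Hsp90b1 passed (0.26, 0.0463), and Xbp1 (0.18, 0.141), Atf6 (0.17, 0.393), Ddit3 (0.45, 0.0779), Ern1 (0.70, 0.0524) and Ern2 (0.24, 0.422) did not. Atf4 was the 1 rhythmic stress gene: it had 155, 169 and 170 FPKM at ZT8 and 80.4, 74.6 and 79.7 at ZT20, fully apart. The count of 11 was 6 without ZT8 replicate 1 and 7 without ZT20 replicate 2 of this group. Against wild type, limma called 0 members for a changed rhythm (0.835% of all genes), where 3 had an unadjusted p under 0.05, weighting libraries by their spread gave 28 and the length score 1. The smallest adjusted p was that of Sec62 (0.23 ± 0.08, 0.339), and Hspa5 (0.38, 0.443), Hsp90b1 (0.25, 0.59), Xbp1 (0.14, 0.777), Atf4 (0.29, 0.45), Atf6 (0.20, 0.799), Ddit3 (0.32, 0.776), Ern1 (0.76, 0.499) and Ern2 (0.38, 0.695) were larger.

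Levels in MR knock out differed from wild type in 28 members (66% of all genes), 12 higher (24.7%) and 16 lower (41.3%). Higher were Creld2 (32.6 against 22.3 FPKM, 0.55 ± 0.12, adjusted p = 0.00021), Manf (0.52 ± 0.11, 0.000103), Sec61b (260 against 186, 0.47 ± 0.08, 1.1e-05), Sec11c (0.46 ± 0.1, 0.000107) and Sec61g (0.45 ± 0.11, 0.000451). Lower were Ern2 (11.7 against 19.7 FPKM, -0.75 ± 0.15, 8.85e-05), Ern1 (-0.66 ± 0.22, 0.00872), Herpud1 (30.7 against 48.5, -0.63 ± 0.08, 3.6e-08), Dnajb9 (-0.55 ± 0.13, 0.000345) and Hyou1 (-0.47 ± 0.16, 0.0121). Of the stress genes Xbp1 (-0.18 ± 0.07, 0.0267) and Atf6 (-0.29 ± 0.1, 0.0158) were lower too, whereas Atf4 (0.17, 0.0546), Ddit3 (0.29, 0.103), Hspa5 (-0.09, 0.46) and Hsp90b1 (0.06, 0.549) did not pass. With the length score as a covariate 10 members passed, 8 higher and 2 lower (37.7% of all genes, with 48% of those calls higher). Xbp1, Atf6, Ern1 and Hyou1 then turned to 0.05, 0.13, 0.27 and 0.13. Without rescaling 3 were higher and 13 lower (48.8% of all genes). At ZT4 alone 6 members passed, all higher (19.4% of all genes; 7.56% higher, 11.8% lower), namely Dnajb11, Creld2, Manf, Sec61b, Sec61g and Ssr2. Both knock outs were compared with the same wild type libraries, so their differences share those 18 libraries.

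Genes of the same pathways outside the member list were taken from lists. Of 21 further regulators of the unfolded protein response 1 was rhythmic in wild type, Crebrf (17.7% of all genes). Rhythmic under low salt were 6 with night feeding (22.6% of all genes) and 14 with day feeding (42.2%), and under high salt 14 with night feeding (57%) and 10 with day feeding (31.6%). At ZT4 on high salt, where 10.3% of all genes were higher and 10.4% lower in day fed mice, 5 of them were higher and 2 lower in day fed mice. For all lists, results of high salt day fed mice take the time labels of that group as given. Ppp1r15a (GADD34), which ends the block of translation, fell by 1.1 ± 0.22 (adjusted p = 0.000304), Atf3 fell by 1.38 ± 0.3 (0.000739) and Creb3l2, an ATF6 relative, rose by 1.04 ± 0.24 (0.00164). Of 22 tested targets of ATF4 6 were higher and 2 lower, with Nupr1, a stress-induced chromatin factor, at -2.63 ± 0.36 (adjusted p = 4.41e-07) and the tRNA ligases Aars at 0.44 and Cars at 0.60. In the same comparison 5 of 32 other folding genes were higher, near the share of all genes, with Uggt1, the glycoprotein folding sensor, at 0.90 ± 0.18 (adjusted p = 0.000351), and 1 was lower, Fkbp14. Further, 6 of 29 other degradation genes were higher, among them Ubxn4 (0.39), Vcp (0.31) and Ube2g2 (0.40), and 1 was lower. Of the other lists, 6 of 27 other export genes were higher and 0 lower (Srp68, of the signal recognition particle, 0.38, adjusted p = 1.97e-05) and 12 of 41 genes of vesicle transport from the ER were higher and 0 lower (Lman2, a cargo receptor, 0.52 ± 0.08, adjusted p = 2.84e-06). Of 16 clock genes 14 were rhythmic in wild type (17.7% of all genes), with a median amplitude of 1.22 against 0.14 in all genes. In the Bmal1 knock out 6 were (56.7% of all genes), with a median amplitude of 0.24, the same as in all genes (0.24).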

How the data were processed

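Expression was measured by RNA-seq of polyadenylated colon RNA in 126 libraries (7 conditions, 6 times, 3 libraries each). The deposited values are FPKM, made by the authors with TopHat2 2.1.1 and Cufflinks 2.2.1 on mm10, per the submitters' processing notes; read counts were not used here, so depth is unknown. Libraries were rescaled by median-of-ratios factors computed over 6966 genes, and log2(rescaled FPKM + 0.5) was fitted for the 11377 genes with a mean of at least 1 in any condition, with limma 3.58.1 (R 4.3.3, trend and robust), in 1 fit of 54 genotype libraries (36 residual degrees of freedom) and 1 of 72 feeding libraries (48). Fold changes are on that scale and understate the changes of low genes. Calls had a Benjamini-Hochberg adjusted p under 0.05 over all genes. A level difference is the difference of the condition means over 6 times, a rhythm is the 24 h cosine and sine contrast (amplitude, peak, F test), and a changed rhythm is the length of the difference of those vectors. The 12 h component, the ZT4 and ZT16 differences, the cosine and sine model and the ZT4 knock out comparison were added after the data were seen.

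Transcript lengths came from GENCODE vM21, promoters from RefSeq, searched and tabulated with Python 3.11.15, pandas 2.3.3 and numpy 2.4.6. The scripts were tested on simulated data. Alternatives were 2 other pseudocounts, 2 other filters, the deposited scale, quantile normalization, array weights, a length score, a replicate block, separate fits, and leaving out libraries. The 45 members and the lists were chosen with earlier results of these data known. Hspa5, Hsp90b1, Xbp1, Atf4, Atf6, Ddit3, Trib3, Ern1 and Ern2 are given in each comparison (Trib3 by level only); others are named by size of the change (up to 5 per direction), of the amplitude (up to 6) or by adjusted p (up to 5 per rhythm comparison, up to 3 per other list), and a few beyond this as examples chosen with their values known.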

Additional observations from a re-analysis of the deposited data

Results flagged for a closer look

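The effect of mealtime differed between the diets, by the test of the difference itself (limma, Benjamini-Hochberg adjusted p from 0.00311 to 0.0492), in the daily mean of 15 members (19.7% of all genes) and the rhythm of 9 (6.21% of all genes). In daily mean, high salt minus low salt, the day minus night difference was larger in Canx by 0.54, Sel1l by 0.44, Ssr3 by 0.43, Stt3a by 0.41, Pdia3 by 0.39, Dnajc3 by 0.36, Pdia4 by 0.36, Atf6 by 0.34, Spcs2 by 0.34, P4hb by 0.3, Calr by 0.26, Edem1 by 0.25, Ero1lb by 0.23 and Herpud1 by 0.22 (log2), and Ddit3 had -0.84. In rhythm, the length of the difference was 0.72 for Hspa5 and for Creld2, 0.64 for Manf, 0.58 for Syvn1, 0.51 for Herpud1 and for Spcs1, 0.44 for Sec61b, 0.38 for Ssr4 and 0.34 for Derl2. Without the low-scale libraries, in a fit with cosine and sine terms, 0 and 1 members passed. With all libraries in that kind of fit 9 and 2 passed. Without replicate 1, 2 or 3 the counts were 2, 15 and 0 for the mean and 3, 2 and 1 for the rhythm. Shares of all genes are not given for these alternative fits. The rhythm differences rest on the time labels of high salt day fed mice as given.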

How the results depend on the processing

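Pseudocounts of 0.1 and 1, a filter at 5 and quantile normalization left every count of called members within 1.5 times of its reported value, and so did the fit with a replicate block (for example 25 against 23 members changed in level by mealtime on high salt). Replicate numbers did not pair the libraries: 2 of 36 pairs of groups had all correlations over 0.1, with a median of -0.07. Counts given below without a share of all genes cannot tell a shift of the members from one of all genes.
On the FPKM as deposited, rhythmic members numbered 3 in wild type, 5 in MR knock out, and 5 and 8 in the night and day fed groups on low salt. Level counts were 16 for MR knock out (48.8% of all genes) and 0 for mealtime on low salt (0.694%). They were 41 for mealtime on high salt (87.8%) and 40 for salt under night feeding (87.8%). Rhythm changes were 8 for mealtime on low salt, 41 for salt under night feeding and 4 after the 12 h move on low salt. The 12 h component gave 0 for low salt day fed, 26 for high salt night fed and 2 for high salt day fed, ZT4 on low salt gave 0, and ZT16 gave 0 on either diet. Members that reversed were Atf4 (-0.23), Ddit3 (-0.06), Manf (-0.10) and Sec61g (-0.12) in Bmal1 knock out, Atf4 (0.13), Sec62 (0.12) and Derl2 (0.28) for mealtime on high salt, and Atf4 (-0.15), Creld2 (-0.21), Manf (-0.28) and Sec62 (-0.28) for salt under night feeding.
With array weights, rhythmic members numbered 32 in wild type, 33 in MR knock out, and 40 and 34 in the night and day fed groups on low salt. Level counts were 25 for mealtime on low salt (47% of all genes) and 37 on high salt (57.8%). They were 39 for salt under night (66.1%) and 24 under day feeding (46.6%). Rhythm changes were 28 for MR knock out, 42 for mealtime on low salt, 34 for salt under night and 41 under day feeding, and 35 after the move on low salt. The 12 h component gave 18, 37, 35 and 41 for low salt night, low salt day, high salt night and high salt day fed, ZT4 on low salt 35, and ZT16 20 on low and 16 on high salt.
With cosine and sine terms, rhythmic counts were 6 in MR knock out and 11 and 7 in the night and day fed groups on low salt. Salt under day feeding changed the level of 1 (11.9% of all genes). Rhythm changes were 16 for mealtime on low salt, 4 and 6 for salt under night and day feeding and 2 after the move on low salt. With the length score added to these terms, rhythmic counts were 12 and 1 in the night and day fed groups on low salt and 17 in high salt day fed. Level counts were 15 for Bmal1 knock out (34.2% of all genes), 10 for MR knock out (37.7%) and 4 for mealtime on low salt (7.52%). Rhythm changes were 1 for MR knock out, 7 for mealtime on low salt and 2 after the move. Under it, signs reversed for Ddit3 (-0.09), Ern1 (0.32) and Ern2 (0.30) in Bmal1 knock out and Xbp1 (0.05), Atf6 (0.13), Ern1 (0.27) and Hyou1 (0.13) in MR knock out.
Without a filter, salt under night feeding changed the rhythm of 7 and the moved low salt comparison gave 4. With fits of only the libraries compared, 2 were rhythmic in MR knock out and 25 in low salt day fed. For rhythm changes, salt under night feeding gave 2 and the moved low salt comparison 12. The 12 h component gave 14, 0 and 5 in low salt day, high salt night and high salt day fed, ZT4 on low salt 11 and ZT16 on low salt 0. Without low-scale libraries, rhythmic counts were 3 in Bmal1 knock out, 12 and 9 in the night and day fed groups on low salt and 4 in high salt night fed. Level counts were 2 for mealtime on high salt (7.08% of all genes), and 4 (13.6%) and 1 (12.2%) for salt under night and day feeding. Rhythm changes were 4 for Bmal1 knock out, 14 for mealtime on high salt, 0 and 7 for salt under night and day feeding, and 2 and 21 after the move on low and high salt. At ZT4 alone levels differed in 1 member in Bmal1 knock out (6.35% of all genes) and 6 in MR knock out (19.4%). Hspa5 (0.45), Xbp1 (0.22), Ddit3 (-0.57) and Hyou1 (0.27) were reversed in Bmal1 knock out.
Leaving out 1 library, or all libraries of 1 replicate number, gave rhythmic counts of 4 to 19 in wild type, 17 to 35 in Bmal1 knock out and 0 to 16 in MR knock out. They were 8 to 25 and 3 to 16 in the night and day fed groups on low salt and 11 to 32 in high salt day fed. Level counts ran from 14 to 31 for MR knock out, 0 to 3 and 8 to 28 for mealtime on low and high salt, and 10 to 26 and 0 to 7 for salt under night and day feeding. Rhythm changes ran from 3 to 30 for Bmal1 knock out, 9 to 30 for mealtime on low salt, 0 to 22 and 6 to 22 for salt under night and day feeding, and 0 to 14 after the move on low salt. The 12 h component gave 0 to 1, 0 to 7, 0 to 19 and 1 to 15 in low salt night, low salt day, high salt night and high salt day fed. ZT4 gave 0 to 16 on low and 12 to 21 on high salt, and ZT16 gave 0 to 2 on low and 0 to 3 on high salt. The cause of these shifts was not tested. FPKM carry no read counts, so what depth limits is unknown.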

Other observations

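Trib3, a target of ATF4, was at most 1.28 FPKM in all libraries but 1, the MR knock out library of ZT12, replicate 2, which had 7.69 FPKM.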
